A study of Mus musculus with 12 samples.

Results

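The genes described here are 31 transcripts of cardiac macrophages, the phagocytes that live in heart muscle or enter it from the blood as monocytes. They were chosen by symbol, as known markers, from a table of 78317 mouse gene IDs, and all 31 were found. Of these, 6 are genes of long-lived resident macrophages (Timd4, Folr2, Cd163, Mrc1, Cbr2 and F13a1), 2 are genes of monocytes (Ly6c2 and Plac8), and 23 are shared by macrophages in general. RNA was sequenced from the heart ventricle of 12 uninjured C57BL/6J offspring. The study asked whether cardiac injury of a father alters the hearts of his offspring. The sires of 6 animals (replicates 12 to 17) had undergone cryoinjury of the heart, a lesion made by freezing, on postnatal day 1 by the protocol (the treatment tag reads P0), and the sires of the other 6 (replicates 18 to 23) were uninjured. The offspring themselves were not injured, so the tissue is that of the unwounded heart. The labels call them adult and also give 3 weeks as the age at collection. By sex, the offspring of injured sires were 3 males with 3 females and those of uninjured sires 4 males with 2 females. Sex, sire and litter are not labelled animal by animal, so p-values reflect the variation among hearts whose kinship is unknown. Injured-sire replicate 16 is named in the labels as an outlier that was left out downstream; comparisons below are of 5 injured-sire against 6 uninjured-sire libraries, with the value of replicate 16 beside them.

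Resident cardiac macrophages are seeded before birth, renew themselves in place and remove dying cells and debris. Their survival depends on the receptor Csf1r, their identity on the transcription factor Spi1 (PU.1), and much of their work on complement C1q, Fc receptors and the uptake receptor Mertk. Monocytes carry Ly6c2 and Plac8, and after a wound they enter the heart in numbers. In bulk tissue, fewer macrophages and less RNA per macrophage cannot be told apart.

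Levels are given as CPM (reads of a gene per 1000000 reads counted in the library, scaled with TMM factors). Libraries held 30537315 to 42090257 counts. Together the 31 genes took 0.0676% ± 0.00865 of counts (SD, n = 5) in injured-sire hearts and 0.0674% ± 0.00368 (SD, n = 6) in uninjured-sire hearts. These shares include Cbr2 and Gas6, which other cells also express. Without those genes the other 29 summed to 432 ± 40.0 CPM and 464 ± 31.2 CPM (SD), with overlapping ranges. The number of genes with at least 1 count was 22972 ± 803 (SD, n = 5) and 25093 ± 1065 (SD, n = 6). Cardiomyocyte markers dominated every library, at a summed 72743 to 89360 CPM over 10 genes. Of the other marker lists, none had a gene past the threshold used below. Neutrophil (9 of 9), airway (9 of 9) and fat genes (10 of 10) all had fold changes above 0, and lymphoid (11 of 11) and dendritic genes (5 of 5) all below 0. Fold changes were below 0 in 3 of 4 mast cell, 2 of 5 alveolar macrophage, 6 of 10 cardiomyocyte, 4 of 9 endothelial, 4 of 8 fibroblast and 6 of 8 erythroid genes. The most abundant gene of each list had log2 fold changes of 1.20 (Ltf, neutrophil), 0.24 (Dgat2, fat), -0.09 (Ighm, lymphoid), -0.19 (Zbtb46, dendritic) and -0.09 (Tpsb2, mast cell). Those of the heart's own cells were 0.11 (Myh6, cardiomyocyte), 0.19 (Fabp4, endothelial), 0.14 (Col3a1, fibroblast) and -0.29 (Hbb-bs, erythroid).

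Promoters of the member genes are shown first because PU.1, the product of the member Spi1, is a known regulator of macrophage genes. The RefSeq promoter table (GRCm38.p6, 250 bases before to 50 bases after each annotated start) held 25 of the 31 genes. The core of the PU.1 box, GAGGAA on either strand, was in the window of 18 of these 25 genes (72%), against 31.3% of 27025 genes in the table. Counted by promoter, it was in 21 of 31 member promoters and in 28.3% of 32851 promoters. The gamma-activated site, TTCNNNGAA, an element of the interferon gamma response, was in 1 member, Fcgr1 (4% of members, 9.55% of all genes). The interferon-stimulated response element core, GAAA, any 2 bases and GAAA on either strand, was in Aif1 and Ctss (8% of members, 3.99% of all genes). No match of 1 motif overlapped a match of another in these 3 genes. The 250 bases before the start of 5 genes whose values are discussed below follow, 5′ to 3′ on the gene's strand, with capitals marking these motifs. Positions count back from the annotated start, with -1 the base before it. Fcgr1 (chr3:96293970-96294219, minus strand) has the gamma-activated site starting at -109 and the PU.1 core, on the opposite strand, at -55. Trem2 (chr17:48346151-48346400, plus strand) has a PU.1 core at -40 and C1qc (chr4:136892915-136893164, minus strand) has its own at -193, both on the strand opposite the gene. Ctss (chr3:95526536-95526785, plus strand) has a PU.1 core at -164 and the interferon-stimulated element at -21. Mertk (chr2:128698665-128698914, plus strand) holds none of the 3 motifs in this window.
Fcgr1: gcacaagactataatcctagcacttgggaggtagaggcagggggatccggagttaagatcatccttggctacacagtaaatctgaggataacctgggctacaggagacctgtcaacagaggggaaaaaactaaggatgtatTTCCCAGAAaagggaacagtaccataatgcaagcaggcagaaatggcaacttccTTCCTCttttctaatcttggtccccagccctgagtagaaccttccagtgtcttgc
Trem2: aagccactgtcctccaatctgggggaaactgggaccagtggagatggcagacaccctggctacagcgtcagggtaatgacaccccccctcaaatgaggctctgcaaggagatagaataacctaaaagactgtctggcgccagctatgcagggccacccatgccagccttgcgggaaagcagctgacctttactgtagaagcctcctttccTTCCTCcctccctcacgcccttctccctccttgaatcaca
C1qc: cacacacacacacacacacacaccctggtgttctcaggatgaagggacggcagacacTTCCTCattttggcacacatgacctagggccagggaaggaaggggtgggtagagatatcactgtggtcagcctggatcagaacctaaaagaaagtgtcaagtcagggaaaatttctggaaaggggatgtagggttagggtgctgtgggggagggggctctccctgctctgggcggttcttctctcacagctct
Ctss: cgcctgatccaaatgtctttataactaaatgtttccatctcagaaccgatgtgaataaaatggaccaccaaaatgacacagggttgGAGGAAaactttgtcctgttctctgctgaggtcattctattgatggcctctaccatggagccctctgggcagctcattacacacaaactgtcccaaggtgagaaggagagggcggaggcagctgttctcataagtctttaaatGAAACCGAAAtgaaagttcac
Mertk: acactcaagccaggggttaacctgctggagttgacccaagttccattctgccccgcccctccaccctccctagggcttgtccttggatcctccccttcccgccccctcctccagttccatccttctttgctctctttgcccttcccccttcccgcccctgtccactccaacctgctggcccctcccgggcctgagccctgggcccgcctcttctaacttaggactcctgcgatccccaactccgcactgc
A match of these letters is a description of the window, with no measurement of binding.

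None of the 31 genes differed between the sire groups after adjustment for all genes tested. All 31 passed the filter on low counts. In edgeR's quasi-likelihood test with Benjamini-Hochberg adjustment over 17130 genes, 0 of 31 had an adjusted p below 0.05, against 18 genes in all (0.105%, of which 0.0525% lower and 0.0525% higher). DESeq2's Wald test and limma voom also called 0 of 31, with 7 of 31 at an unadjusted p below 0.05 in each. At an unadjusted p below 0.05 there were 7 members, 6 of them lower and 1 higher in injured-sire hearts, where 8.96% of all genes tested reached that level (4.68% lower, 4.28% higher). The members leaned to one side: 26 had a log2 fold change (injured-sire minus uninjured-sire) below 0 and 5 above 0. Their median was -0.14, while 49.9% of all genes tested were below 0, with a median of 0.0002. By class, 21 of 23 general macrophage genes were below 0 (median -0.16), as were 3 of 6 resident genes (median -0.03) and both monocyte genes (median -0.67). No member had groups that did not overlap in CPM, a state seen in 1.04% of genes tested (0.625% with the injured-sire group below and 0.420% with it above). These are counts over genes that share cells, and no test was made of the list. The lean depended in part on single libraries: without injured-sire replicate 17, 21 members were below 0 and the median was -0.07. Without uninjured-sire replicate 22 the values were 22 members and -0.09, and without injured-sire replicate 12 they were 22 members and -0.15.

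**Figure D1:**
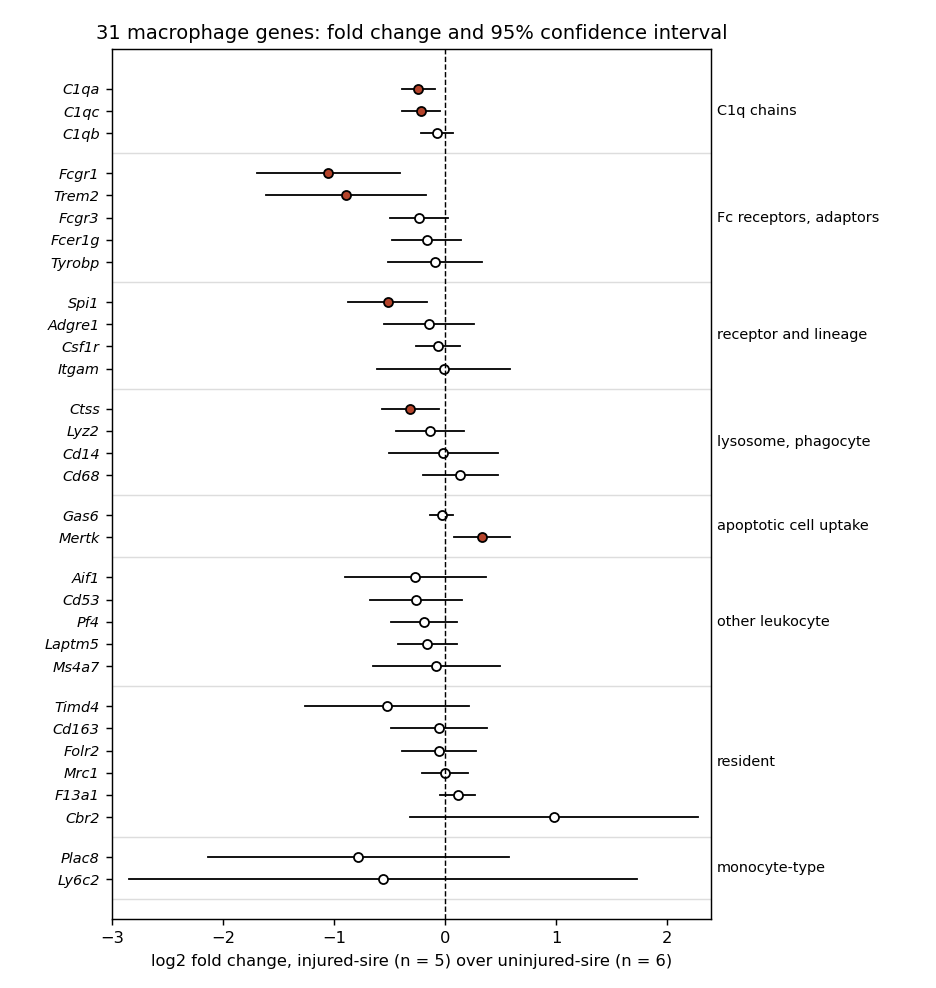
Log2 fold change of each of the 31 genes, injured-sire (n = 5) over uninjured-sire (n = 6), with its 95% confidence interval, by role; filled circles mark an unadjusted p below 0.05. Of the 31 points, 26 lie left of 0, and the intervals of Ly6c2, Plac8 and Cbr2 are the widest.

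Levels are compared between genes only per length of exon. In uninjured-sire hearts Gas6, the ligand that bridges dying cells to Mertk and that many stromal cells also make, stood highest at 70.1 ± 2.08 CPM per kb (SD, n = 6). Lyz2, the lysozyme of myeloid cells, followed at 64.8 ± 8.57 CPM per kb, and its range of 52.1 to 73.2 covered that of Gas6. C1qa (36.9 ± 2.20 CPM per kb) and C1qb (31.6 ± 2.37) overlapped each other and lay above C1qc (17.1 ± 1.503), which overlapped neither. The lowest levels per length were those of Ms4a7 (0.341 ± 0.0559 CPM per kb), Trem2 (0.297 ± 0.0880) and Ly6c2 (0.168 ± 0.167), and the ranges of these 3 neighbours overlapped. The defining genes of the list were thus present in every library, except Ly6c2, which had 0 counts in injured-sire replicates 12 and 17 and in uninjured-sire replicate 20.

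**Figure D2:**
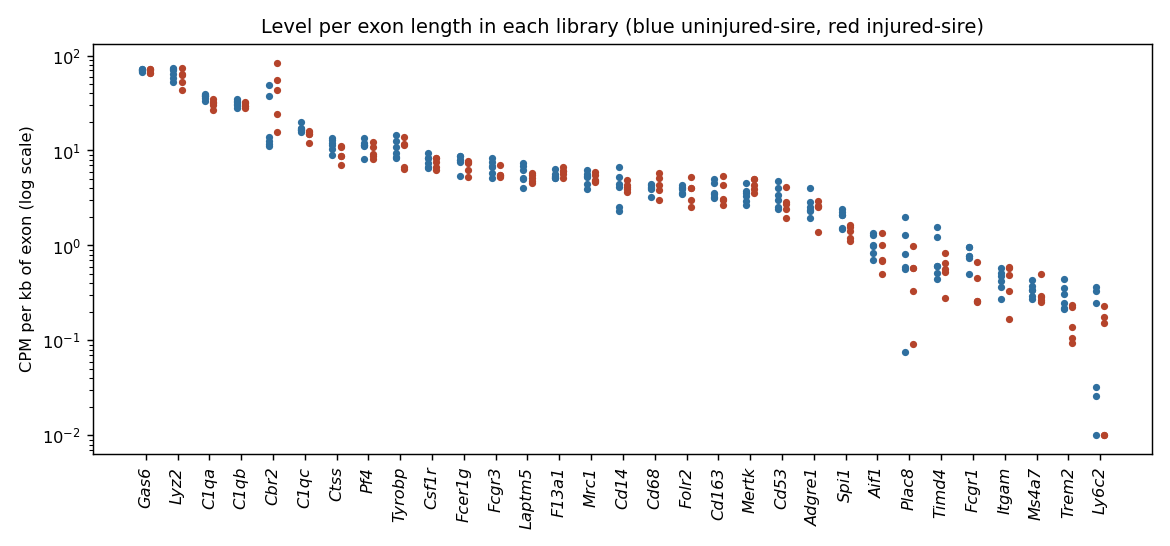
Level of each gene per length of exon (CPM per kb, log scale) in each library of the comparison, blue for uninjured-sire and red for injured-sire hearts, in order of the uninjured-sire mean; values of 0 are drawn at 0.01. Gas6 and Lyz2 stand highest, Ly6c2 lowest, and Cbr2 spreads widely within both groups.

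The 3 chains of C1q, the recognition protein of the classical complement pathway that macrophages make in bulk and that tags synapses, debris and dying cells, had fold changes below 0. C1qa (ENSMUSG00000036887, GRCm39 chr4:136623228-136626114) measured 27.9, 36.5, 31.4, 33.4 and 33.3 CPM in injured-sire replicates 12, 13, 14, 15 and 17 and 34.5 CPM in replicate 16. The uninjured-sire range was from 34.6 CPM through a median of 38.8 CPM to 41.3 CPM. Replicate 13 alone among the 5 injured-sire libraries reached into the uninjured-sire range. The log2 fold change of C1qa was -0.24 ± 0.0734 (SE; adjusted p = 0.254 in edgeR). C1qc, the neighbouring gene at chr4:136617115-136620376, measured 28.5, 31.2, 28.6, 30.5 and 23.4 CPM in the same 5 libraries and 33.8 CPM in replicate 16, against 30.1 to 38.6 CPM (median 32.4) in uninjured-sire hearts. Its lowest library was replicate 17, and replicates 13 and 15 overlapped the other group. The log2 fold change was -0.22 ± 0.0813 (SE; adjusted p = 0.393 in edgeR). C1qb, at chr4:136607440-136613498, ranged from 30.6 to 34.9 CPM in the 5 injured-sire libraries and from 30.7 to 38.2 CPM in uninjured-sire hearts, with 28.4 CPM in replicate 16, below both ranges. It had a log2 fold change of -0.07 ± 0.0698 (SE; adjusted p = 0.826 in edgeR). Over all 12 libraries the correlation of C1qa with C1qb was r = 0.608, with C1qc r = 0.585, and of C1qb with C1qc r = 0.450, and none passed a permutation test after adjustment over 23 correlations (adjusted p = 0.168, 0.179 and 0.345). The ranks gave rho = 0.664, 0.734 and 0.476 (permutation adjusted p = 0.102, 0.0882 and 0.345), and without the 2 libraries farthest from the median r was 0.573, 0.665 and 0.585. Replicate 16 decided some of these: over the 11 libraries without it, C1qa with C1qc gave rho = 0.882 (permutation adjusted p = 0.0075) and r = 0.619 (permutation adjusted p = 0.123), and C1qb with C1qc gave rho = 0.818 (permutation adjusted p = 0.0204) and r = 0.745 (permutation adjusted p = 0.0493). C1qa with C1qb did not pass there (r = 0.703, permutation adjusted p = 0.0587). The 19 correlations of that adjustment include the pair Cbr2 with Scgb1a1, chosen after the values were seen. The r of C1qb with C1qc was not adjusted without that pair, so whether it would pass was not determined. With no scaling factor, C1qa with C1qc gave rho = 0.797 (permutation adjusted p = 0.0227), and centred on the group means none passed.

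Of 6 other genes of the C1 complex and classical pathway, all 6 were tested, 0 passed, and 4 had fold changes below 0. The proteases C1ra and C1s1, which act with C1q, had log2 fold changes of -0.02 ± 0.120 and -0.02 ± 0.0819 (SE). The 2 smallest p-values of this group belonged to C2, a protease of the next step, at -0.67 ± 0.383 (adjusted p = 0.643 in edgeR), and to the inhibitor Serping1, at -0.05 ± 0.0543 (adjusted p = 0.828 in edgeR).

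Fcgr1, the high-affinity receptor for IgG, had the smallest p of all members. This gene (ENSMUSG00000015947, GRCm39 chr3:96190225-96201285) measured 0.680, 1.17, 1.73, 0.650 and 0.671 CPM in injured-sire replicates 12, 13, 14, 15 and 17, from 26, 39, 63, 27 and 23 counts. Replicate 16 stood at 1.93 CPM. Offspring of uninjured sires ran from 1.31 CPM through a median of 2.01 CPM to 2.50 CPM. Replicates 12, 13, 15 and 17 lay below every uninjured-sire library, and replicate 14 lay inside their range. The log2 fold change of Fcgr1 was -1.05 ± 0.312 (SE, 95% confidence interval -1.70 to -0.41; adjusted p = 0.245 in edgeR), and with replicate 16 included it was -0.84 ± 0.307 (adjusted p = 0.443 in edgeR). Over the 22 alternatives its value ran from -1.36 to -0.84 and its adjusted p from 0.0753 to 0.443, the lowest from DESeq2's Wald test.

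Its promoter, printed above, is the only one of the 25 with a gamma-activated site, and the values of interferon-stimulated genes are given beside it. Of 20 such genes, 17 had fold changes below 0 and 0 passed the threshold, while 9 had an unadjusted p below 0.05 in edgeR (8.96% of all genes tested) and 2 had the injured-sire group wholly below the other (0.625% of all genes tested). Their summed level was 188 to 212 CPM in the 5 injured-sire libraries, 226 CPM in replicate 16 and 216 to 244 CPM in uninjured-sire hearts, with none of the 20 at 0 in every library. Gbp2, a GTPase induced by interferons, was at 12.0 ± 0.988 CPM (SD, n = 5) compared with 16.4 ± 1.20 CPM (SD, n = 6), without overlap in the groups compared, and its log2 fold change was -0.44 ± 0.0901 (SE; adjusted p = 0.0516 in edgeR). Stat2, which carries the signal of type I interferon, had -0.24 ± 0.0769 (SE; adjusted p = 0.296 in edgeR), and Rsad2, the most abundant gene of the list, had -0.37 ± 0.0791 (SE; adjusted p = 0.0603 in edgeR). Gbp2 passed under DESeq2's Wald test (adjusted p = 0.00235), without the filter on low counts, with a filter of 1 CPM in 5 libraries, with upper-quartile factors and without injured-sire replicate 12 (adjusted p from 0.00387 to 0.0461 in edgeR). Rsad2 passed under DESeq2's Wald test (adjusted p = 0.00506), in limma voom (adjusted p = 0.0353), without the filter and without injured-sire replicate 12 (adjusted p = 0.000172 and 0.00876 in edgeR). Gbp7 passed under DESeq2's Wald test (adjusted p = 0.0029) and without the filter (adjusted p = 0.00594 in edgeR). It also passed with upper-quartile factors and with a filter of 1 CPM in 5 libraries (adjusted p = 0.0441 and 0.0461 in edgeR). The part of the interferon-stimulated genes in the Fcgr1 result was not tested.

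Trem2, a lipid-sensing receptor of macrophages that signals through the adaptor Tyrobp, measured 0.523, 1.11, 0.686, 1.16 and 0.467 CPM in injured-sire replicates 12, 13, 14, 15 and 17 and 1.23 CPM in replicate 16. Uninjured-sire hearts ran from 1.05 CPM through a median of 1.38 CPM to 2.17 CPM. Replicates 13 and 15 overlapped the lowest uninjured-sire hearts, and the other 3 lay below all of them, on as few as 16 counts. Trem2 (chr17:48653429-48661175) had a log2 fold change of -0.89 ± 0.348 (SE, 95% confidence interval -1.62 to -0.17; adjusted p = 0.408 in edgeR). Its partner Tyrobp was at 6.68 ± 2.21 CPM (SD, n = 5) and 7.13 ± 1.62 CPM (SD, n = 6), with a log2 fold change of -0.09 ± 0.203 (SE; adjusted p = 0.943 in edgeR). The correlation of Tyrobp with Trem2 was r = 0.565 (rho = 0.322; permutation adjusted p = 0.179 and 0.511) and rested on 2 libraries, since it was -0.038 without them.

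The remaining receptors of this class gave smaller values. Fcer1g, the signalling chain that Fcgr1 and Fcgr3 need, had a log2 fold change of -0.17 ± 0.150 (SE; adjusted p = 0.810 in edgeR). Fcgr3, a low-affinity IgG receptor, had -0.24 ± 0.127 (SE; adjusted p = 0.605 in edgeR), and its close copies Fcgr2b, the inhibitory receptor, and Fcgr4 had -0.19 ± 0.177 and -0.07 ± 0.614 (SE). Reads that the copies share were not counted, so the levels of these 3 are uncertain. All 5 tested genes of the list of other Fc receptors and the Syk pathway were below 0, none passed, and the 2 smallest p-values were those of Fcgr2b (adjusted p = 0.820 in edgeR) and of Plcg2, a phospholipase downstream of Syk (-0.12 ± 0.145 SE; adjusted p = 0.879 in edgeR). Correlations of Fcer1g with Fcgr3 (r = 0.244, rho = 0.147) and with Tyrobp (r = 0.499, rho = 0.308) over 12 libraries did not pass (permutation adjusted p from 0.282 to 0.767), and without the 2 farthest libraries r was 0.293 and 0.157.

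**Figure D3:**
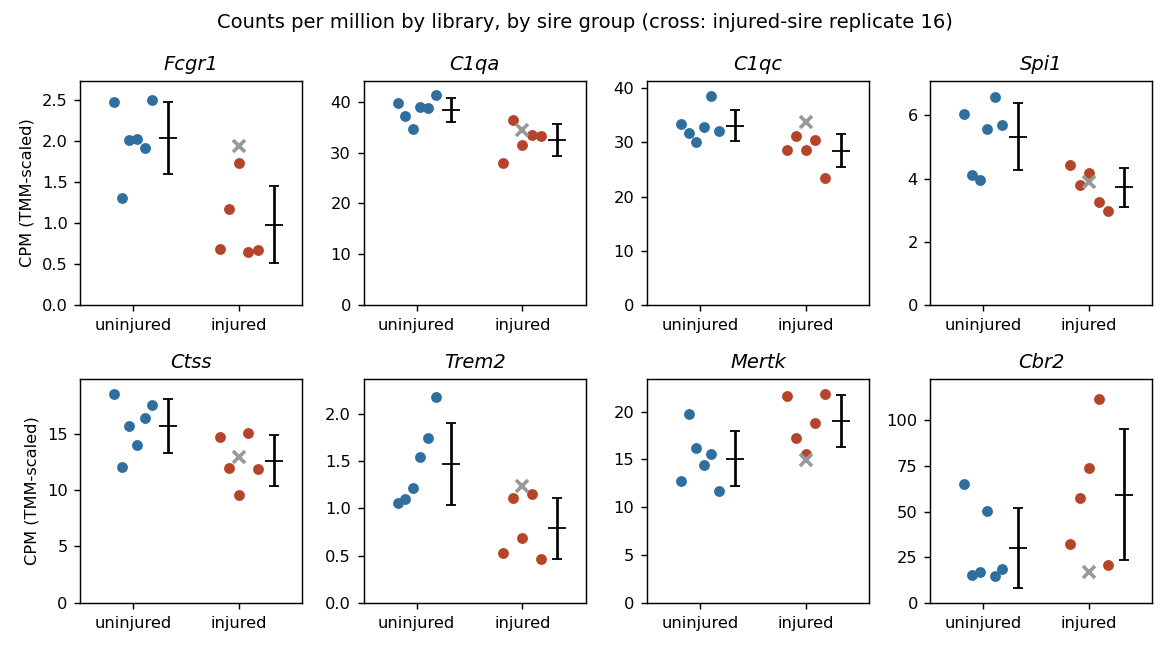
CPM of 8 genes in each library, blue for uninjured-sire (n = 6) and red for injured-sire hearts (n = 5), with the mean and SD of each group as bars and injured-sire replicate 16, which is in no mean, as a grey cross. In all 8 panels the groups overlap; Fcgr1 replicate 16, at 1.93 CPM, lies among the uninjured-sire values.

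Among lineage genes, Spi1 had the larger difference. It encodes PU.1, the factor that myeloid cells need to form, and lies at GRCm39 chr2:90912735-90946101 (ENSMUSG00000002111). Injured-sire replicates 12, 13, 14, 15 and 17 measured 4.42, 3.79, 4.17, 3.25 and 2.98 CPM, and replicate 16 measured 3.89 CPM. The uninjured-sire range was from 3.97 CPM through a median of 5.64 CPM to 6.56 CPM. Replicates 12 and 14 overlapped the 2 lowest uninjured-sire hearts. Its log2 fold change was -0.52 ± 0.172 (SE, 95% confidence interval -0.87 to -0.16; adjusted p = 0.316 in edgeR), and it was -0.50 ± 0.162 with replicate 16 (adjusted p = 0.326 in edgeR). Csf1r, the survival receptor, was at 42.8 ± 5.28 CPM (SD, n = 5) compared with 44.9 ± 6.13 CPM (SD, n = 6), and its log2 fold change was -0.07 ± 0.0941 (SE; adjusted p = 0.898 in edgeR). Adgre1, the F4/80 antigen, had -0.14 ± 0.194 and Itgam, the CD11b integrin chain, -0.01 ± 0.288 (SE; adjusted p = 0.891 and 0.995 in edgeR). So 3 of these 4 lineage genes lay within 1 SE of no difference while Spi1 did not; whether Spi1 differs from them was not tested.

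Csf1r with Adgre1 gave r = 0.714 over the 12 hearts (permutation p = 0.00534, adjusted p = 0.0426 over 23 correlations). That adjusted p rests on the pair Cbr2 with Scgb1a1, described below, which was chosen after the values were seen and is among the 23. An adjustment without that pair was not made. The ranks gave rho = 0.713 (permutation p = 0.0115, adjusted p = 0.0882), and r was 0.654 without the 2 libraries farthest from the median of Csf1r. Centred on the group means r was 0.697, with an adjusted permutation p of 0.0926. Spi1 with Csf1r gave r = 0.397 and rho = 0.503 (permutation adjusted p = 0.420 and 0.332; r = 0.525 without the 2 farthest). Of 11 genes of the CSF1 axis and macrophage factors, 4 were below 0 and 0 passed. The ligands of Csf1r were close to level, with Csf1 at 0.06 ± 0.120 and Il34 at 0.11 ± 0.158 (SE). The 2 smallest p-values were those of Cebpb, a factor of myeloid and fat cells, at 0.33 ± 0.165 (adjusted p = 0.602 in edgeR), and of Maf, a factor of resident macrophages, at -0.18 ± 0.105 (adjusted p = 0.655 in edgeR).

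Ctss, cathepsin S, the lysosomal protease that trims the class II invariant chain, measured 14.7, 11.9, 9.55, 15.02 and 11.9 CPM in injured-sire replicates 12, 13, 14, 15 and 17 and 12.96 CPM in replicate 16. Offspring of uninjured sires ran from 12.1 CPM through a median of 16.04 CPM to 18.5 CPM. Replicates 12 and 15 lay well inside the uninjured-sire range and the other 3 just or clearly below it. Ctss (chr3:95434097-95463714) had a log2 fold change of -0.31 ± 0.124 (SE; adjusted p = 0.424 in edgeR). Of 7 genes of class II antigen presentation, 6 had fold changes below 0 (median -0.38) and 0 passed. Ciita, the master activator of class II transcription, was at 0.500 ± 0.312 CPM (SD, n = 5) compared with 1.442 ± 0.568 CPM (SD, n = 6), with a log2 fold change of -1.51 ± 0.437 (SE; adjusted p = 0.229 in edgeR; DESeq2 Wald adjusted p = 0.0498). H2-Ab1 and H2-Aa, the 2 chains of I-A, had -0.38 ± 0.207 and -0.57 ± 0.347 (SE; adjusted p = 0.634 and 0.701 in edgeR). Dendritic and lymphoid cells carry class II as well. Dendritic markers summed to 16.5 to 20.3 CPM in injured-sire and 20.0 to 27.1 CPM in uninjured-sire hearts, with 18.2 CPM in replicate 16, and their part in these values was not tested.

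The other lysosomal and phagocyte genes showed no shared direction of any size. Cd68, a late endosome glycoprotein, had a log2 fold change of 0.14 ± 0.162, Cd14, the lipopolysaccharide co-receptor, -0.02 ± 0.229, and Lyz2 -0.13 ± 0.139 (SE; adjusted p from 0.847 to 0.993 in edgeR). Lyz2 ran from 56.5 to 97.9 CPM and from 68.6 to 96.3 CPM. Its sister copy Lyz1 shares sequence with it, and reads common to both were not counted, so its level is uncertain. With S100a8 of neutrophils, Lyz2 gave r = 0.070 and rho = 0.119 over 12 libraries (permutation p = 0.828 and 0.715, adjusted p = 0.828 and 0.783; r = 0.453 without the 2 farthest). Summed neutrophil markers ran from 6.34 to 66.2 CPM, and the part of neutrophils in the Lyz2 values was not tested.

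Mertk, the receptor through which macrophages swallow dying cells, was the 1 member on the higher side at an unadjusted p below 0.05. It lies at GRCm39 chr2:128540876-128644814 (ENSMUSG00000014361). Injured-sire replicates 12, 13, 14, 15 and 17 measured 21.7, 17.2, 15.6, 18.8 and 21.8 CPM, and replicate 16 measured 14.9 CPM. Uninjured-sire hearts ran from 11.7 CPM through a median of 15.02 CPM to 19.8 CPM. Replicates 12 and 17 lay above all uninjured-sire hearts and the other 3 within their range. The log2 fold change was 0.34 ± 0.121 (SE, 95% confidence interval 0.08 to 0.59; adjusted p = 0.372 in edgeR), and with replicate 16 it was 0.28 ± 0.121 (adjusted p = 0.544 in edgeR). These 2 libraries with the most Mertk, 12 and 17, had the least Trem2 and Tyrobp of the 5.

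The ligand Gas6 was the steadiest of all members. It ran from 166 to 182 CPM in injured-sire and from 171 to 184 CPM in uninjured-sire hearts, a coefficient of variation of 3.67% over 12 libraries. Its log2 fold change was -0.03 ± 0.0496 (SE, 95% confidence interval -0.13 to 0.07; adjusted p = 0.920 in edgeR). Gas6 did not vary with Mertk (r = -0.323, rho = -0.343; permutation adjusted p = 0.433 and 0.511), and r was 0.266 without the 2 farthest libraries. Of 14 other genes of apoptotic cell uptake and the TAM receptors (Tyro3, Axl and Mertk), 12 had fold changes above 0 and 0 passed. Axl, the related receptor that many stromal cells carry, was at 148 ± 4.68 CPM (SD, n = 5) compared with 135 ± 8.82 CPM (SD, n = 6), with a log2 fold change of 0.13 ± 0.0543 (SE; adjusted p = 0.460 in edgeR). Mfge8, a bridge to phosphatidylserine, had 0.10 ± 0.0579 (SE; adjusted p = 0.656 in edgeR), and Pros1, the second ligand of Mertk, was level at -0.002 ± 0.0774 (SE).

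The resident genes divided evenly, with 3 fold changes below 0 and 3 above. Mrc1, the mannose receptor CD206, was the flattest: 32.8 ± 3.47 CPM (SD, n = 5) compared with 32.8 ± 5.15 CPM (SD, n = 6), and its log2 fold change was 0.0008 ± 0.0999 (SE, 95% confidence interval -0.21 to 0.21; adjusted p = 0.999 in edgeR). Folr2, a folate receptor of tissue macrophages, had -0.05 ± 0.162, and Cd163, the haemoglobin scavenger receptor, -0.05 ± 0.197 (SE; adjusted p = 0.962 and 0.967 in edgeR). F13a1, a transglutaminase chain, was at 39.9 ± 4.13 CPM (SD, n = 5) compared with 36.9 ± 3.12 CPM (SD, n = 6), with 0.11 ± 0.0768 (SE; adjusted p = 0.718 in edgeR). The 95% confidence interval of F13a1 was -0.05 to 0.27. Pairs within the class did not pass over 12 libraries: Cd163 with Mrc1 gave r = 0.350 (rho = 0.378), Cd163 with F13a1 r = 0.441 (rho = 0.364) and Mrc1 with Cbr2 r = -0.314 (rho = -0.350). Their adjusted permutation p ran from 0.345 to 0.511, and r without the 2 farthest libraries was 0.159, 0.178 and -0.106.

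Timd4, a phosphatidylserine receptor that marks the longest-lived resident cells, measured 1.23, 1.80, 1.15, 1.42 and 0.613 CPM in injured-sire replicates 12, 13, 14, 15 and 17 and 0.778 CPM in replicate 16. The uninjured-sire range was from 0.973 CPM through a median of 1.31 CPM to 3.37 CPM. The 2 highest values, in uninjured-sire replicates 18 (2.67 CPM) and 23 (3.37 CPM), stood apart from the other 10. Its log2 fold change was -0.52 ± 0.356 (SE; adjusted p = 0.722 in edgeR), and it was -0.25 without replicate 23. The same 2 libraries had the most lymphoid marker RNA, 90.05 and 61.0 CPM summed over 14 genes against 16.4 to 46.9 CPM in the other 10, and the part of lymphoid cells in the Timd4 values was not tested.

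Cbr2, a carbonyl reductase, is a gene of resident macrophages and also one of the most abundant genes of the airway lining. It measured 32.5, 57.6, 74.0, 112 and 20.7 CPM in injured-sire replicates 12, 13, 14, 15 and 17 and 17.1 CPM in replicate 16. Uninjured-sire hearts measured 65.0, 15.4, 16.8, 50.1, 14.8 and 18.3 CPM in replicates 18 to 23. The values fall into a low band of 14.8 to 20.7 CPM and a scattered high set of 32.5 to 112 CPM, and both sire groups have libraries in each. The log2 fold change was 0.98 ± 0.574 (SE; adjusted p = 0.687 in edgeR).

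Markers of airway and lung epithelium moved with Cbr2. In the same order, their sum over 12 genes was 132, 245, 424, 636 and 41.5 CPM in the injured-sire libraries and 2.82 CPM in replicate 16. It was 388, 2.17, 2.46, 292, 6.86 and 1.72 CPM in uninjured-sire replicates 18 to 23. The 6 libraries above 100 CPM of airway signal (injured-sire 12 to 15, uninjured-sire 18 and 21) are the 6 with the most Cbr2, and the other 6 are the low band. That limit and the pairing of Cbr2 with Scgb1a1, the secretory protein of airway club cells and the most abundant gene of that list (log2 fold change 1.41 ± 1.53 SE), were chosen after the values were seen. The permutation p-values of that pair, given next, therefore do not measure chance. Within the 6 libraries of high airway signal, Cbr2 followed Scgb1a1 (r = 0.961, exact permutation p = 0.00556, adjusted p = 0.0426; rho = 0.943, exact permutation p = 0.0167, adjusted p = 0.0958), and r was 0.824 without the 2 farthest. Within the 6 of low signal it did not (r = 0.523, exact permutation p = 0.318, adjusted p = 0.433; rho = 0.086, exact permutation p = 0.919; r = -0.359 without the 2 farthest). Airway sums there were 6.86 CPM or less in all but injured-sire replicate 17, so the low set can hardly show such a relation. When scores of airway and fat genes entered the fit, the log2 fold change of Cbr2 was -0.092 ± 0.354 (SE; adjusted p = 0.967 in edgeR), the opposite sign. Markers of alveolar macrophages did not follow this split, at a summed 87.6 to 113 CPM in all 12 libraries, most of it Car4 (log2 fold change -0.11), which capillaries also express; Ear1 had 0 counts in all 12.

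Among other members, Mrc1, Adgre1, Pf4, Csf1r and F13a1 were lower in the 2 uninjured-sire libraries of high airway signal than in the other 4. Mrc1 was at 25.2 and 28.4 CPM there and at 33.5 to 39.3 CPM in the other 4, and Adgre1 at 6.23 and 7.38 CPM and at 7.601 to 13.2 CPM. A split of 2 against 4 libraries arises readily by chance, and its share over all genes was not determined. In the injured-sire comparison group only replicate 17 had low airway signal, and there the 5 genes went the other way. Each had its lowest value of the 5 libraries in replicate 17: Mrc1 29.6, Adgre1 4.46, Pf4 5.81, Csf1r 36.4 and F13a1 34.3 CPM. The part of airway signal in these values was not tested. Lyz2 with Scgb1a1 had r = 0.856 in the high-signal libraries (exact permutation p = 0.0319, adjusted p = 0.168; rho = 0.886, adjusted p = 0.128; r = 0.430 without the 2 farthest) and r = -0.466 in the low-signal ones (exact permutation p = 0.386, adjusted p = 0.493; rho = -0.143; r = -0.093 without the 2 farthest). With Sftpc, the surfactant gene of alveolar cells, Lyz2 had r = -0.519 and r = -0.316 in the high and low libraries. Without the 2 farthest libraries these were 0.142 and -0.630. Plac8 with Scgb1a1 had r = 0.542 and r = -0.380 in the high and low libraries, and 0.323 and 0.148 without the 2 farthest. The adjusted permutation p of r for these pairs ran from 0.433 to 0.697. Without Cbr2 and the stromal gene Gas6, the other 29 members summed to 432 ± 40.0 CPM (SD, n = 5) in injured-sire hearts and 464 ± 31.2 CPM (SD, n = 6) in uninjured-sire hearts, with 416 CPM in replicate 16. The ranges of 372 to 474 CPM and 421 to 507 CPM overlapped.

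**Figure D4:**
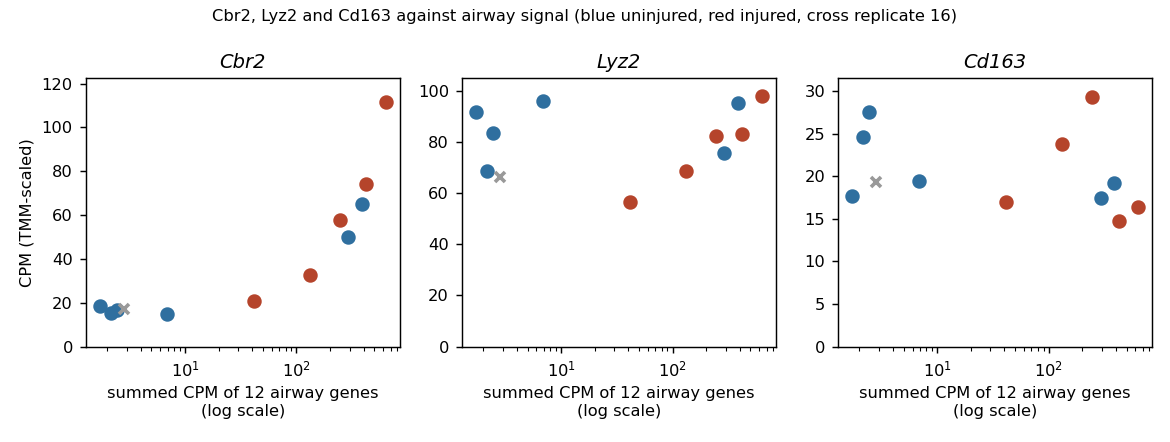
CPM of Cbr2, Lyz2 and Cd163 in the 12 libraries against the summed CPM of 12 airway and lung epithelium genes (log scale), blue for uninjured-sire, red for injured-sire hearts and a grey cross for replicate 16. Cbr2 stays between 14.8 and 20.7 CPM in the 6 libraries below 100 CPM of airway signal and climbs to 112 CPM above it; Lyz2 runs from 68.7 to 97.9 CPM above that limit and from 56.5 to 96.3 CPM below it, and Cd163 from 14.7 to 29.3 CPM and from 16.98 to 27.6 CPM.

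The monocyte genes were scarce and uneven. Plac8, a small cysteine-rich protein of monocytes and of some lymphoid and epithelial cells, measured 0.523, 0.931, 1.56, 0.915 and 0.146 CPM in injured-sire replicates 12, 13, 14, 15 and 17 and 0.886 CPM in replicate 16. Offspring of uninjured sires ran from 0.120 CPM through a median of 1.13 CPM to 3.16 CPM, so the range of the injured-sire group lay inside theirs. Its log2 fold change was -0.78 ± 0.634 (SE; adjusted p = 0.790 in edgeR), and it was -0.37 without uninjured-sire replicate 18.

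Ly6c2, the surface protein of inflammatory monocytes, had 0, 14, 23, 20 and 0 counts in the 5 injured-sire libraries, 2 in replicate 16, and 32, 3, 0, 3, 25 and 31 counts in uninjured-sire replicates 18 to 23. A count of 0 allows up to 3 counts, or 0.0785, 0.0875 and 0.0717 CPM in injured-sire replicates 12 and 17 and uninjured-sire replicate 20. The log2 fold change of -0.56 ± 1.07 (SE; adjusted p = 0.931 in edgeR) leaves the direction unresolved at this depth. Ly6c2 has a near-identical neighbour, Ly6c1 of endothelial cells, and reads common to both were not counted.

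The 2 genes varied together: over 12 libraries r was 0.844 (permutation p = 3e-05, adjusted p = 0.00069) and rho 0.951 (permutation p = 4e-05, adjusted p = 0.00092), with r = 0.817 without the 2 farthest libraries. Both were high in uninjured-sire replicates 18 and 23 and at or near 0 in injured-sire replicate 17 and uninjured-sire replicate 20. Replicates 18 and 23 are the libraries with the most lymphoid marker RNA, given above for Timd4, and replicates 17 and 20 had 21.2 and 16.4 CPM of it. The part of lymphoid cells in the pair was not tested. Of 8 tested genes of 10 in the monocyte list, 5 were below 0 and 0 passed. Ccr2, the receptor that brings monocytes into tissue, ran from 1.40 to 2.46 CPM and from 1.45 to 3.08 CPM, overlapping, and its log2 fold change was -0.21 ± 0.243 (SE; adjusted p = 0.863 in edgeR). Fn1, fibronectin, which fibroblasts make as well, had 0.19 ± 0.0740 (SE; adjusted p = 0.424 in edgeR).

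The 5 further leukocyte and macrophage genes all had fold changes below 0, and none reached an unadjusted p below 0.05. Aif1, the actin-bundling protein IBA1, had a log2 fold change of -0.27 ± 0.306, and Cd53, a leukocyte tetraspanin, -0.26 ± 0.199 (SE; adjusted p = 0.862 and 0.771 in edgeR). Pf4, a chemokine of platelets that resident macrophages share, had -0.19 ± 0.145, Laptm5, a lysosomal protein of blood cells, -0.16 ± 0.127, and Ms4a7 -0.08 ± 0.274 (SE; adjusted p = 0.771, 0.784 and 0.965 in edgeR). Laptm5, which lymphocytes also express, was highest in uninjured-sire replicates 23 and 18, at 27.8 and 25.8 CPM, and the highest Cd53 was 8.39 CPM in replicate 18.

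Of 16 other macrophage markers, 13 were below 0 (median -0.13) and 0 passed. Cx3cr1, the fractalkine receptor of resident macrophages and patrolling monocytes, measured 8.45, 4.63, 5.54, 6.02 and 4.14 CPM in injured-sire replicates 12, 13, 14, 15 and 17 and 8.21 CPM in replicate 16, against 9.45 ± 2.63 CPM (SD, n = 6) in uninjured-sire hearts. Replicate 12 stood inside the range of the uninjured-sire hearts, 6.26 to 13.9 CPM, and the other 4 below it. Its log2 fold change was -0.71 ± 0.200 (SE; adjusted p = 0.229 in edgeR), and it passed under DESeq2's Wald test (adjusted p = 0.0475) and without the filter on low counts (adjusted p = 0.000169 in edgeR). Mpeg1, the pore-forming perforin-2, had -0.32 ± 0.217, and Ptprc, the CD45 of all leukocytes, -0.37 ± 0.285 (SE; adjusted p = 0.728 and 0.778 in edgeR). Of 8 tested chemokines of 12 listed, 6 were below 0 and 0 passed, with Ccl6 at -0.29 ± 0.103 and Ccl9 at -0.28 ± 0.149 (SE; adjusted p = 0.361 and 0.609 in edgeR).

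**Figure D5:**
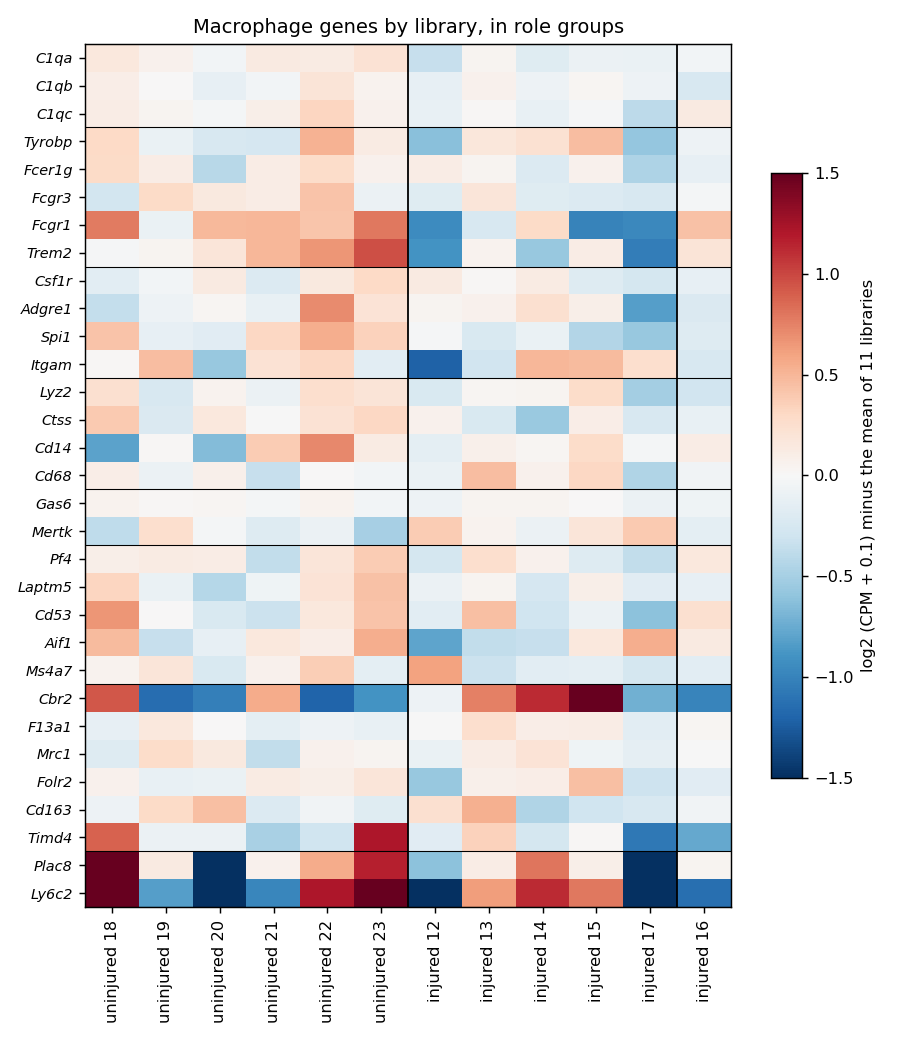
Log2 (CPM + 0.1) of each gene in each library minus its mean over the 11 libraries compared, by role (lines) and sire group, with replicate 16 last; colours are capped at 1.5 in either direction. Cbr2, Plac8, Ly6c2 and Timd4 vary most between libraries, and Gas6 least.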

How the data were processed

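Bulk RNA-seq counts of 12 mouse heart ventricles were used. The authors' deposited values are raw counts per Ensembl gene (GRCm39, Ensembl release 114), made with featureCounts 2.1.1 at strand setting 2 without multi-mapping reads, per the file headers. Also named, per the submitters' processing notes, are STAR 2.7.10a, Subread 2.0.3, Salmon 1.9.0, FastQC 0.11.9, MultiQC 1.12, R 4.4.0 and DESeq2 1.44.0, with no role given. Another 11 sample columns have no described sample and stayed out of every step. Of 78317 gene IDs, 51487 were matched to symbols of GENCODE release M21 (99.3% of counts), which served for names only; coordinates of genes are those of the counted file and promoters are RefSeq's on GRCm38.p6. Groups and replicate numbers come from the sample titles.

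In R 4.3.3, edgeR 4.0.16 fitted all genes passing filterByExpr (minimum count 10, minimum total 15) after TMM scaling. The quasi-likelihood F test (robust, two-sided) was adjusted by Benjamini-Hochberg over 17130 genes, at a threshold of 0.05. SEs come from the F statistic. Correlations used log2 CPM with a prior count of 2 and 100000 permutations, or all permutations for 6 libraries. The scripts were tested on simulated data. DESeq2 1.42.0 and limma 3.58.1 were alternatives, among 22 settings. With 30537315 to 42090257 counts per library, counting error weighs most on Ly6c2, Plac8, Trem2, Timd4, Fcgr1, Aif1, Itgam and Ms4a7, each with under 100 counts in at least 1 library; intervals and floors for a count of 0 cover counting error only. Named genes were every member, the 2 genes with the smallest p of each pathway list, a few fixed pathway genes and some marker genes. Results for some of these are not reported here. Members, lists and tests were chosen with earlier results of these data known.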

Additional observations from a re-analysis of the deposited data

Results flagged for a closer look

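In 4 of 62 groups examined (31 genes in both sire groups), 1 library stood farther from the rest than Dixon's 95% limit allows, and chance alone flags about 1 in 20 groups. Fcer1g was at 4.73 CPM in uninjured-sire replicate 20, below the 6.61 to 7.73 CPM of the other 5. Fcgr3 was at 12.2 CPM in injured-sire replicate 13, above the 9.10 to 9.47 CPM of the other 4. Adgre1 was at 4.46 CPM in injured-sire replicate 17, below the 8.21 to 9.47 CPM of the other 4. Ms4a7 was at 2.25 CPM in injured-sire replicate 12, above the 1.14 to 1.30 CPM of the other 4. The 4 values are in 4 different libraries.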

How the results depend on the processing

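No member passed in edgeR, DESeq2 or limma voom under any of the 22 settings, with a smallest adjusted p of 0.0753 (Fcgr1, DESeq2 Wald test). The number of members below 0 ran from 21 to 27, and 18 of 31 were below 0 and 3 above 0 in every setting that tested them. The median of all members ran from -0.23 (airway and fat scores as covariates) to -0.07 (without injured-sire replicate 17), with -0.08 under a sex-linked covariate. That of the monocyte genes ran from -1.74 to -0.18 under the same 2 kinds of covariate, and that of the resident genes from -0.05 to 0.04 (without injured-sire replicates 13 and 12). Resident members below 0 numbered 1 (without injured-sire replicate 17) to 4 when 1 library was left out. With a sex-linked covariate 1 of 2 monocyte genes was below 0. Pathway genes passing numbered 1 without the filter and 2 under DESeq2's Wald test. Gbp2 passed under 5 settings and Rsad2 under 4. Gbp7 passed under the settings given above with the interferon-stimulated genes, and Flt3, Dgat2 and Alas2 of the marker lists passed without the filter. Cbr2 had a log2 fold change of -0.092 with airway and fat scores as covariates. C1qb with C1qc gave r = 0.745 without injured-sire replicate 16 (adjusted permutation p = 0.0493, the pair Cbr2 with Scgb1a1 included). The ranks gave rho = 0.818 there (adjusted permutation p = 0.0204). C1qa with C1qc then gave rho = 0.882 (adjusted permutation p = 0.0075), and Csf1r with Adgre1 gave r = 0.697 centred on group means (adjusted permutation p = 0.0926). The causes of these shifts were not tested. Over all genes, 18 passed, 236 without the filter, 28 with a filter of 1 CPM in 5 libraries (29 members tested), 134 under DESeq2's Wald test, and 8 to 43 with 1 library left out. No paired analysis was possible because no replicate number occurs in both groups. Depth limits Ly6c2 most, with 0 to 32 counts per library.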
